A study of Mus musculus with 4 samples.

Results

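Interleukins are the signals that leukocytes, epithelium and stroma use to address each other, and 82 genes of this kind were examined in 4 lung tumors of KP mice. The members are the rows of the annotated count table whose symbol is Il followed by a number and optional letters, which gave 82 of 39017 genes. They comprise 38 ligands and secreted antagonists, 41 receptor subunits and 3 genes of other kinds (Il16, Il34 and Il4i1). The tumors formed 1 group, labelled Control, so no treatment or genotype was compared and the level of each gene and its spread between tumors are the measurements. The mice were male, on a C57BL6/J background, and carried the K-ras LSL-G12D/WT and p53 Fl/Fl alleles, and all of them received 1500 viral units of lenti.PGK-Cre into the trachea. PGK is a promoter active in most cell types, so the virus does not restrict Cre to 1 lung cell type. Tumors were macrodissected 22 weeks and 5 days after initiation and dissociated to single cells, from which polyadenylated RNA was sequenced. The labels add a heterozygous fl/wt genotype without naming the gene, whereas the column names of the deposited log2 table mark the tumors WT. By the methods of the study, control mice had wild-type Slc2a1 (or Slc2a3), genes of glucose transporters, or were Slc2a1 WT/Flox heterozygotes, and which of these applies to each tumor was not given in the sources used here. The labels do not say whether the 4 tumors came from 4 mice. The age of the mice was not given in the sources used here.

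Most interleukin receptors are pairs of chains, 1 that binds the ligand and 1 that is shared by several cytokines. Receptors of the IL-1 family signal through Myd88 and Irak kinases, whereas most others signal through Jak kinases and Stat factors. In the lung, alveolar type 2 cells, the cells that make surfactant and from which KP tumors are thought to arise, are a known source of IL-33, an alarmin held in the nucleus and released on damage. Type 2 immunity, driven by IL-4, IL-5 and IL-13, and type 3 immunity, driven by IL-17 and IL-23, are both known in this organ.

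Total counts lay between 8151613 and 8799007 per tumor. Values are CPM, counts scaled to a common library size after TMM normalization, and levels of different genes are set side by side as CPM per kb of annotated exon. Up to 3 counts (0.330 to 0.370 CPM, depending on the tumor) a gene was not regarded as detectable at this depth. Alveolar type 2 transcripts were abundant in all tumors (Sftpc 24720 ± 5053 CPM, SD, n = 4), as was Epcam with 415 ± 162 CPM, and every pair of libraries differed by more than counting noise. RNA came from whole tumors, so fewer cells of a type and less RNA per cell cannot be told apart. Other RNA of the study came from tumor fractions depleted of immune cells, and its set of bulk lentiviral KP tumors had 4 samples. Each tumor had 1 library, so differences between tumors and between library preparations cannot be told apart either.

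The interleukin signal of these tumors was carried by a few genes. Of the 82 members, 51 exceeded 3 counts in at least 1 tumor and 43 did so in 4 of 4. Most ligands were not detectable at this depth: 24 of 38 stayed at or under 3 counts in every tumor, against 7 of 41 receptor subunits. The share of all genes above 3 counts was not computed. A mean of at least 1 CPM, the minimum for testing, was reached by 42 members (10 ligands or antagonists, 29 receptors and the 3 others). Of all 39017 genes, 14225 reached it. Together the 82 members summed to 1345, 1797, 2321 and 1812 CPM in tumors 1 to 4 (mean 1819 ± 399, SD, n = 4). The 4 genes with the most counts, Il33, Il18r1, Il4ra and Il6st, held 59.8% ± 4.34 (SD, n = 4) of that sum. Receptors made up 1187 ± 207 CPM of it and ligands 551 ± 197 CPM (SD, n = 4), with tumor 1 lowest and tumor 3 highest for both.

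**Figure D1:**
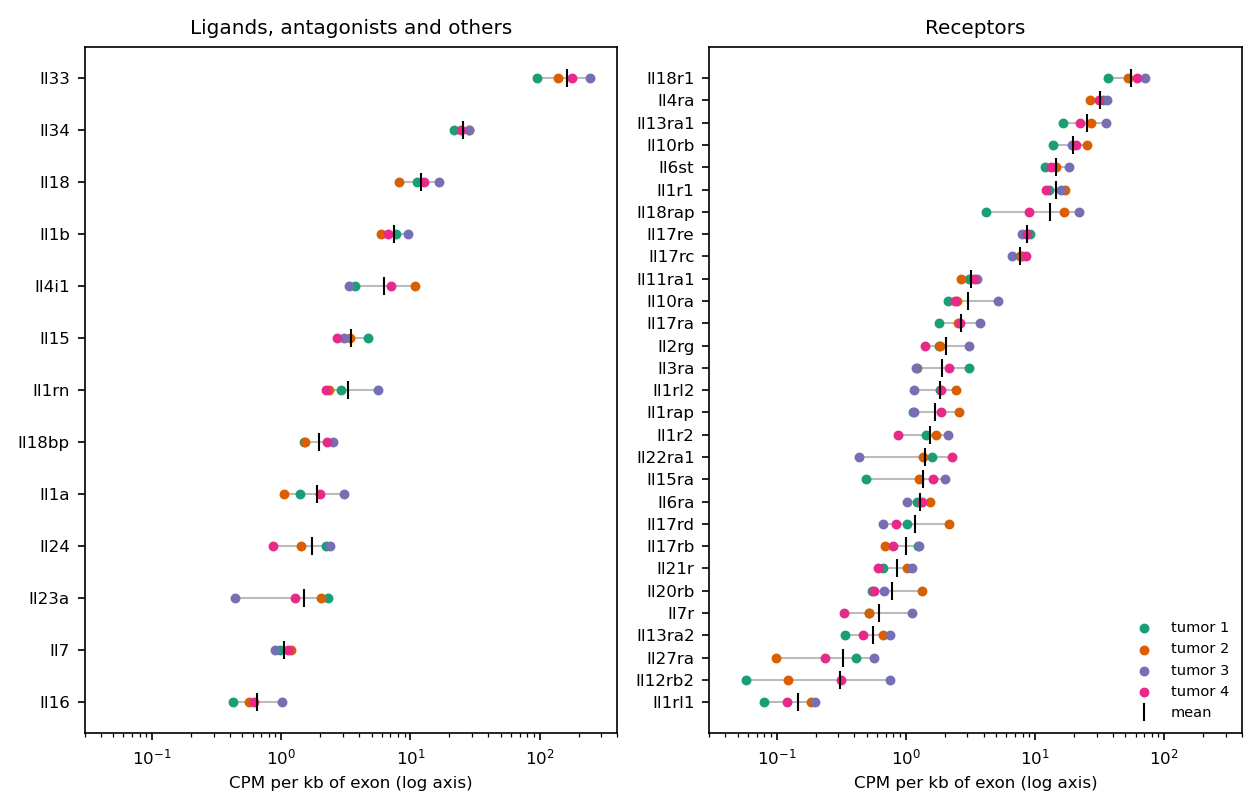
CPM per kb of exon (log axis) of the 42 members with a mean of at least 1 CPM, with ligands, antagonists and others on the left and receptors on the right. Each point is 1 tumor, the bar is the mean of 4 tumors and the gray line spans their range. Il33 lies at 94.9 to 245 and stands clear of all other members, Il18r1 leads the receptors, and Il1rl1, the Il33 receptor, is the lowest gene shown.

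Il33 was the highest member by a wide margin. Its level was 274, 399, 708 and 513 CPM in tumors 1 to 4 (mean 474 ± 184, SD, n = 4), from 2490 to 5739 counts. Tumor 3 was highest and tumor 1 lowest, a 2.58-fold range that exceeded counting noise. Il33 (ENSMUSG00000024810) is a plus-strand gene at chr19:29925114-29960718 (GRCm38), and no other annotated gene overlaps its exons. Per kb it reached 164 ± 63.9 CPM, and its lowest tumor (94.9) lay above the highest tumor of the next member, Il18r1 (70.6). The summed CPM of the 6 alveolar type 2 markers was 29424, 47710, 41862 and 49268 in tumors 1 to 4, none of them at 0, so it was lowest in the same tumor as Il33 but highest in tumor 4. Sftpc, Lamp3, Slc34a2 and Napsa were lowest in tumor 1. Sftpb (6601 CPM) and Abca3 (759 CPM) were instead lowest in tumor 3, where Il33 was highest. The part of alveolar type 2 cells in the spread of Il33 was not tested.

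The other ligands of the IL-1 family were far lower. Il18, a cytokine released by inflammasomes, had 11.6, 8.48, 17.0 and 13.1 CPM (mean 12.5 ± 3.56, SD, n = 4). Il1b, the main secreted IL-1, had 14.6, 11.3, 18.1 and 12.7 CPM (mean 14.2 ± 2.97). Both were highest in tumor 3 and lowest in tumor 2. Il1rn, which encodes the IL-1 receptor antagonist, had 16.1, 13.0, 31.0 and 12.4 CPM (mean 18.1 ± 8.73), with tumor 3 highest. Il1a averaged 3.70 ± 1.74 CPM, and Il18bp, the secreted antagonist of IL-18, 5.90 ± 1.56 CPM (SD, n = 4). The 6 tested ligands and antagonists of this family all varied beyond counting noise (76.7% of all genes tested did) and were all highest in tumor 3 (30.1% of all genes). Exons of Il18bp overlap the opposite-strand gene Numa1, which had up to 2115 counts, and the strand setting of the counting was not given in the sources used here, so the level of Il18bp is uncertain. Of the IL-36 group, Il1f9 (IL-36 gamma) had 3, 0, 12 and 0 counts in tumors 1 to 4, whereas Il1f5, Il1f6 and Il1f8, as well as Il1f10, had 0 counts in all tumors.

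The most abundant receptor transcript was that of Il18r1. This ligand-binding chain of the IL-18 receptor had 176, 252, 339.9 and 297 CPM in tumors 1 to 4 (mean 266 ± 69.96, SD, n = 4). Il18rap, the accessory chain needed for signaling, had 28.1, 113, 148 and 60.5 CPM (mean 87.4 ± 53.4). Both were highest in tumor 3 and lowest in tumor 1, but the range was 1.93-fold for Il18r1 and 5.26-fold for Il18rap. With an SD of 1.07 on the log2 CPM scale, Il18rap varied the most of the 22 members with a mean of at least 10 CPM. Per kb the binding chain exceeded the accessory chain in 4 of 4 tumors (36.6 against 4.16, 52.3 against 16.8, 70.6 against 21.9 and 61.7 against 8.97).

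T and NK cells are known to carry the IL-18 receptor, and their markers were measured beside it. The 4 NK cell markers (Ncr1, Klrb1c, Nkg7 and Klrd1) summed to 0.440 to 2.21 CPM, with 4 of 4 under 1 CPM on average, and the highest of them, Klrd1, had 0.508 CPM per kb. Of the 8 T cell markers 4 were under 1 CPM on average, their sum was 6.71, 7.67, 23.9 and 6.78 CPM in tumors 1 to 4, and the highest, Cd2, had 2.37 CPM per kb. Il18r1 had 55.3 ± 14.5 CPM per kb (SD, n = 4). The T cell sum was highest in tumor 3, where Cd2 alone gave 12.6 of the 23.9 CPM. The part of these cells in the level and spread of Il18r1 and Il18rap was not tested.

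The upstream sequences of Il33, Il18r1 and Il18rap are shown because these are the highest ligand, the highest receptor and the most variable of the well-expressed members. They are the 250 bases before each annotated RefSeq start on GRCm38.p6, written 5′ to 3′ on the strand of the gene. Capitals mark STAT sites, searched as TTCNNNGAA on both strands. The middle one of the 3 Il18r1 starts, whose window overlaps the first, was left out.
Il33, first start, chr19:29924863-29925112, plus strand: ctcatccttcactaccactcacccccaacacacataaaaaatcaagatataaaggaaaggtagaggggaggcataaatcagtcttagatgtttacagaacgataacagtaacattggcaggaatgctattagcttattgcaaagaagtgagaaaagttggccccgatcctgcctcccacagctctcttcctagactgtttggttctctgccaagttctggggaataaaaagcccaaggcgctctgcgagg
Il33, second start, chr19:29945540-29945789, plus strand: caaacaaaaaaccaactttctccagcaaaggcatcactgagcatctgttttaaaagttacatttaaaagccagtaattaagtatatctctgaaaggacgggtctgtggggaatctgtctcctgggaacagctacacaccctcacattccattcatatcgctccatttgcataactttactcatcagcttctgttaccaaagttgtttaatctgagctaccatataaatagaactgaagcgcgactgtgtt
Il18r1, first start, chr1:40465302-40465551, plus strand: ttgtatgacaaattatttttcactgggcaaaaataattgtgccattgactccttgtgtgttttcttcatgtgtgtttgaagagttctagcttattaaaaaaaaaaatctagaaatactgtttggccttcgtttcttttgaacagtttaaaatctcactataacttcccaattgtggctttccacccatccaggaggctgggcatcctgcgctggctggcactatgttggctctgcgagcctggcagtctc
Il18r1, last start, chr1:40465756-40466005, plus strand: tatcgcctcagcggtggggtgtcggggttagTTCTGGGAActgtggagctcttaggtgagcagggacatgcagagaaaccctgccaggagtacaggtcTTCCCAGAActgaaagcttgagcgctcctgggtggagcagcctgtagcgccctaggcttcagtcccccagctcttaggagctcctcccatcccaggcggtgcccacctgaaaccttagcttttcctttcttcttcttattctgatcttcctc
Il18rap, chr1:40515112-40515361, plus strand: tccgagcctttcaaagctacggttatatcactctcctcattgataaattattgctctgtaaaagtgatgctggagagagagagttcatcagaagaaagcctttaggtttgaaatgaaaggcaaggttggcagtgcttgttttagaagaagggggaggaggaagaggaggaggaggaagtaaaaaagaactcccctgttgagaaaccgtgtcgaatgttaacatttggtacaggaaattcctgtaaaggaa
Of these windows, 1 holds STAT letters, the last start of Il18r1 with 2 matches that do not overlap. The AP-1 letters TGANTCA and the kB motif were searched on both strands as well and were found in none of the 5 windows. STAT letters occurred in 7.02% of 32851 windows of all genes, AP-1 letters in 6.75% and the kB motif in 3.90%. Among 44 windows of the 33 tested members that were matched by symbol, STAT letters occurred in 4, AP-1 letters in 7 and the kB motif in 2. Counts were deposited per gene, so they do not tell which of several starts was used.

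Il18r1 and Il18rap belong to a row of 6 receptor genes on the plus strand of chromosome 1 (40074079 to 40551705, GRCm38), and these neighbors differed widely in level. In order they are Il1r2, the IL-1 decoy receptor, Il1r1, the signaling IL-1 receptor, Il1rl2, the IL-36 receptor, Il1rl1, the IL-33 receptor, Il18r1 and Il18rap. Their means were 1.54, 14.5, 1.83, 0.146, 55.3 and 12.9 CPM per kb, and none of them shares exonic bases with another annotated gene. Il1r1 had 81.5, 109, 102 and 77.2 CPM (mean 92.4 ± 15.4, SD, n = 4) and was among the steadier members. Il1rl2 had 12.5, 16.6, 7.90 and 12.8 CPM and, unlike its neighbors, was lowest in tumor 3.

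Il1rl1 was the lowest of the 42 tested members per kb, whereas its ligand was the highest. Its counts were 5, 11, 11 and 7 in tumors 1 to 4, or 0.550, 1.28, 1.36 and 0.833 CPM, a spread not beyond counting noise (chi-square test, adjusted p 0.316). Group 2 innate lymphoid cells and mast cells are known for this receptor, and the 4 mast cell markers summed to 0 to 0.123 CPM, with Fcer1a and Ms4a2 at 0 counts in all tumors. Il1rap, the chain that Il1r1, Il1rl1 and Il1rl2 share, had 13.0, 29.5, 13.1 and 21.3 CPM (mean 19.2 ± 7.89, SD, n = 4), with tumor 2 highest. Il1r2 averaged 2.94 ± 1.01 CPM, Il1rapl1 had 1 count in 1 tumor and Il1rapl2 none.

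**Figure D2:**
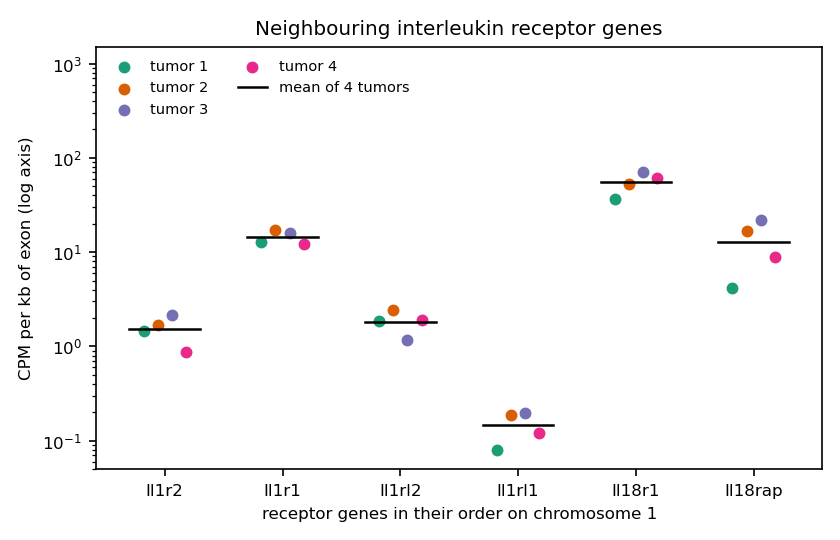
CPM per kb of exon (log axis) of the 6 neighboring receptor genes of chromosome 1 in their order along it. Each point is 1 tumor and the line is the mean of 4 tumors. Il18r1 has a mean of 55.3, whereas its direct neighbor Il1rl1 has a mean of 0.146.

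Receptors for IL-4 and IL-13 were well expressed although the ligands were not. Il4ra, the chain common to both cytokines, had 203, 161, 215 and 189 CPM (mean 192 ± 23.3, SD, n = 4). Il13ra1, which pairs with it on non-lymphoid cells, had 61.2, 100.01, 132 and 82.4 CPM (mean 93.9 ± 29.9), and thus ranged more than Il4ra (2.15-fold against 1.34-fold). Il2rg, the common gamma chain of leukocytes, averaged 4.86 ± 1.76 CPM, and the decoy receptor Il13ra2 1.27 ± 0.431 CPM. The level of Il2rg is uncertain, since it shares 730 nt with the same-strand gene Gm20489, which had 0 counts, and shared reads may have been discarded. Il4, Il13 and Il9 had 0 counts in all tumors, Il5 at most 2 and Il21 at most 2. Il2 had 1 count in 1 tumor.

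The lymphocyte growth factors Il7 and Il15 were the only common gamma chain ligands tested, with 5.93 ± 0.782 and 7.80 ± 1.95 CPM (SD, n = 4). Il15ra, which presents IL-15 to neighboring cells, had 2.20, 5.58, 9.01 and 7.26 CPM, so tumor 1 was lowest by a 4.09-fold range, whereas Il15 itself was highest in tumor 1 (10.6 CPM against 6.07 to 7.67). Il7r and Il21r averaged 2.90 ± 1.58 and 2.82 ± 0.837 CPM (SD, n = 4), and Il2ra, Il2rb and Il9r stayed under 1 CPM on average. Il7r carries repeat sequence with near-identical stretches in 46 other annotated genes, which makes its count uncertain. Il3ra, the IL-3 receptor, averaged 5.68 ± 2.66 CPM and was highest in tumor 1, whereas Il3 and Il5ra had 0 counts.

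In the IL-6 family the shared chain dominated. Il6st, which encodes gp130, the signaling chain of IL-6, IL-11 and related cytokines, had 132, 163, 204 and 147 CPM (mean 161 ± 31.0, SD, n = 4), with tumor 3 highest. The ligand-specific chains were lower: Il11ra1 had 13.9, 11.8, 15.9 and 15.1 CPM, and Il6ra had 10.5, 13.2, 8.89 and 11.5 CPM. Neither varied beyond counting noise (chi-square test, adjusted p 0.156 and 0.0684). Il11ra2 had 0 counts, but it shares 1299 nt at 99.0% identity with Il11ra1, so reads of the pair may have been discarded or assigned to 1 of them. Il6 had 3, 3, 8 and 6 counts and Il11 3 to 5 counts.

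Il23a, the specific subunit of IL-23, had 5.17, 4.53, 0.987 and 2.85 CPM, and tumor 3, where most members were high, was its lowest. Il12rb2, the IL-12 receptor chain of type 1 lymphocytes, had 2, 4, 23 and 10 counts (0.220, 0.465, 2.84 and 1.19 CPM) and the largest SD of the tested members, 1.48 on the log2 scale. Its exons overlap the opposite-strand gene Serbp1 with up to 3814 counts, so its level is uncertain. Il27ra had 1.43, 0.348, 1.97 and 0.833 CPM, and it overlaps the opposite-strand gene Palm3. Il12a, Il31 and Il31ra had 0 counts, Il12b and Il27 at most 3, Il12rb1 at most 5 and Il23r 6 counts in tumor 3 with 0 in the others.

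Il10rb, the broadly expressed chain of the IL-10 family, had 52.5, 96.1, 73.8 and 79.6 CPM, or 19.8 ± 4.73 CPM per kb (SD, n = 4). It shares 573 nt with the same-strand gene Gm21970, which had 0 counts, so shared reads may have been discarded. Il10ra, the leukocyte chain specific for IL-10, had 7.37, 8.71, 18.02 and 8.44 CPM, with tumor 3 highest. Il10 itself had 1 count in 1 tumor. The epithelial chain Il22ra1 went the other way, with 4.07, 3.48, 1.11 and 5.83 CPM, so that tumor 3 was lowest by a 5.25-fold range. Il20rb averaged 3.28 ± 1.55 CPM and was highest in tumor 2, and Il24, the highest ligand of the family, averaged 2.39 ± 0.996 CPM (SD, n = 4). Il22ra2, the soluble IL-22 decoy, had 1 to 5 counts, Il19 had 1 count in 1 tumor, and Il20, Il22 and Il20ra had 0.

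IL-17 receptors had the steadiest sum of the receptor families, although single members varied. Il17re, the receptor chain for IL-17C, had 53.8, 50.2, 46.5 and 51.3 CPM (mean 50.4 ± 3.02, SD, n = 4), and its neighbor on chromosome 6, Il17rc, the partner chain for IL-17A and IL-17F, had 21.2, 20.3, 17.8 and 22.8 CPM. Their spread was not beyond counting noise (chi-square test, adjusted p 0.231 and 0.170). Il17ra, the common chain, had 15.5, 22.0, 32.5 and 22.6 CPM and did vary, with tumor 3 highest. Il17rd had 11.2, 23.8, 7.28 and 9.28 CPM, with tumor 2 highest, and Il17rb averaged 3.71 ± 1.11 CPM. The last 2 levels are uncertain, since Il17rd has near-identical stretches in 13 other genes and Il17rb overlaps the opposite-strand gene Actr8. The summed CPM of the 5 receptors was 106, 119, 109 and 109. Of the 6 ligands, Il17a, Il17b, Il17c and Il25 had 0 counts, Il17f at most 1 and Il17d 6 to 13.

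Among the genes of other kinds, Il34, a second ligand of the Csf1 receptor of macrophages, had 42.3, 55.2, 55.5 and 48.5 CPM (mean 50.4 ± 6.30, SD, n = 4). Per kb it ranked next after Il4ra with 25.7 ± 3.22 CPM. Its exons overlap the opposite-strand genes Gm15895 and Gm15894, with up to 78 counts, so its level is somewhat uncertain. Il4i1, an amino acid oxidase induced by IL-4 and no cytokine, had 15.3, 44.5, 13.6 and 29.0 CPM, and tumors 2 and 4 lay above tumors 1 and 3. Il4i1 shares exonic sequence with Tbc1d17, Nup62 and Atf5, so its count is uncertain. Il16, a chemoattractant for CD4 cells, averaged 5.12 ± 1.96 CPM and overlaps the opposite-strand gene Stard5. In the order of CPM per kb, Il33 and Il18r1 were separated from the next member by ranges that do not overlap, whereas for all later neighbors among the 42 members the ranges overlapped.

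Ligands, decoys and partner chains were then set against each other within each tumor, as differences of log2 CPM per kb in 12 pairs. The direction was the same in 4 of 4 tumors for 11 pairs, and for 8 pairs without length correction. With 4 tumors the exact two-sided sign-flip permutation test cannot go below p = 0.12, so no pair could pass 0.05. These 11 pairs reached that smallest p (adjusted over the 12 pairs 0.136, Benjamini-Hochberg).

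The largest difference was that of Il33 over Il1rl1, with 10.05 ± 0.41 on the log2 scale (SD, n = 4). Antagonists did not exceed their agonists throughout: Il18bp lay below Il18 by a log2 difference of -2.63 ± 0.22 and Il1rn below Il1b by -1.27 ± 0.35, whereas Il1rn lay above Il1a by 0.79 ± 0.44. The direction between Il1rn and Il1b rests on the length correction, since without it Il1rn lay above by 0.27 (exact permutation p 0.25).

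Among receptor pairs the shared chain was the higher one for IL-6 and IL-10, but not for IL-1 and IL-17. Il1r2, the decoy, lay below Il1r1 by -3.27 ± 0.36, and Il1rap, the accessory chain, by -3.17 ± 0.55 (SD, n = 4). Il6st exceeded Il6ra by 3.50 ± 0.43, Il10rb exceeded Il10ra by 2.76 ± 0.63 and Il11ra1 exceeded Il6ra by 1.32 ± 0.41. Il17rc exceeded Il17ra by 1.57 ± 0.55, which turned to -0.13 without the length correction. Il15ra lay below Il15 by -1.49 ± 1.21, with tumor 1 farthest (-3.21 against -1.43 to -0.60). That difference was -0.79 with the longest transcript as length (exact permutation p 0.38) and -0.51 without length correction (exact permutation p 0.62), and no longer had 1 direction. Il13ra1 and Il4ra differed by -0.39 ± 0.49, less than their spread between tumors (exact permutation p 0.25).

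**Figure D3:**
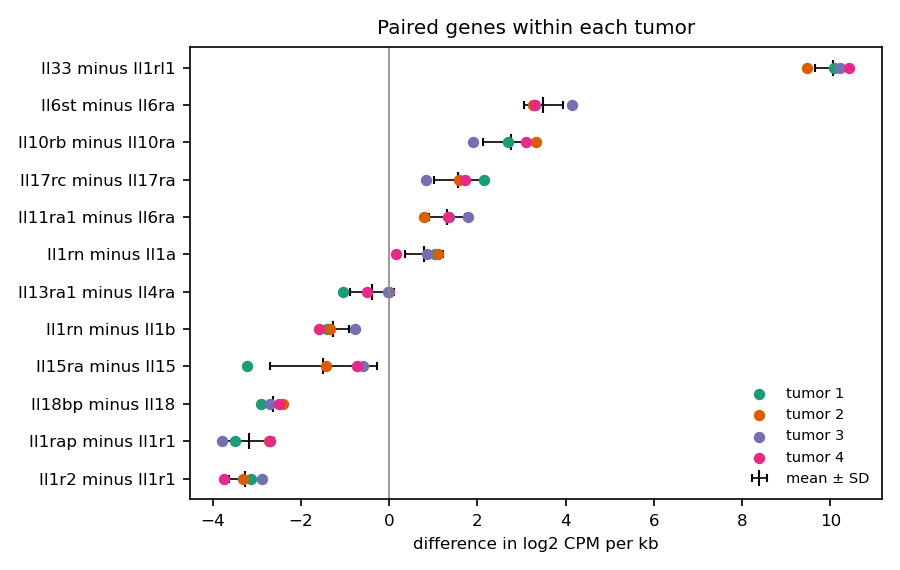
Difference in log2 CPM per kb between the first and the second gene of 12 pairs. Each point is 1 tumor, and the bars give the mean ± SD of 4 tumors. In 11 pairs the 4 tumors lie on 1 side of 0, and Il33 minus Il1rl1 has the largest mean, 10.05.

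Members varied between tumors by larger factors than most genes, and tumor 3 was most often the highest. Of the 42 tested members, 34 varied beyond counting noise, against 76.7% of 14225 genes tested (chi-square test, Benjamini-Hochberg adjusted p under 0.05 over all of them), so the share itself was close to the background. Those 34 were 9 of 10 ligands (all but Il7), 22 of 29 receptors and the 3 others. The size of the spread was larger: the median SD of log2 CPM was 0.49 for the 42 members and 0.29 for all genes tested. The highest tumor exceeded the lowest more than 2-fold in 26 of 42 members, against 28.5% of all genes. The spread was also compared within ranges of level. For genes with a mean of at least 10 CPM the median SD was 0.41 for 22 members and 0.25 for 10269 genes, and at 1 to 10 CPM it was 0.58 for 20 members and 0.49 for 3956 genes.

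Tumor 3 had the highest CPM in 27 of the 42 members, against 30.1% of all genes tested. The count was 27 of 42 with DESeq2 size factors as well and 25 of 41 with total counts as library size. The median deviation of the members from their own mean was 0.39 on the log2 scale in tumor 3 and -0.14 in tumor 1, against -0.01 and 0.01 for all genes. Tumor 1 was highest in 4 members (31.4% of all genes), tumor 2 in 9 (20.4%) and tumor 4 in 2 (18.0%). Tumor 1 was lowest in 17 members (30.3% of all genes), tumor 3 in 10 (32.6%), tumor 2 in 7 (19.4%) and tumor 4 in 8 (17.7%). Without tumor 3, 19 of 40 members varied beyond counting noise, against 62.4% of all genes, and 9 of 40 ranged over 2-fold, against 16.5%. No single tumor stood apart from the other tumors in any of the 42 members by Dixon's ratio, which 5.86% of all genes passed.

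Most summed leukocyte markers were also highest in tumor 3, although single markers went other ways. The 5 pan-leukocyte markers summed to 113, 139, 275 and 158 CPM in tumors 1 to 4, the 6 macrophage markers to 191, 213, 285 and 209 CPM and the 6 alveolar macrophage markers to 243, 203, 920 and 436 CPM. Chil3 alone gave 775 of the 920 CPM, whereas Fabp4 (5.68 CPM) and the macrophage markers C1qa (25.7 CPM) and C1qb (36.8 CPM) were lowest in tumor 3. The 7 neutrophil markers summed to 31.0, 48.6, 77.5 and 29.5 CPM, with Ly6g at 0 counts in 3 of the tumors and S100a8 highest in tumor 1. The 4 B cell markers summed to 6.16, 13.5, 18.4 and 17.96 CPM, nearly equal in tumors 3 and 4, with Cd79b highest in tumor 4. The 4 NK cell markers, each under 1 CPM on average, summed to 0.440, 2.21, 1.97 and 0.476 CPM, too low to rank tumors 2 and 3. The 4 endothelial markers summed to 166 to 215 CPM, the 5 fibroblast markers to 297 to 528 CPM, the 5 dendritic cell markers to 5.83 to 12.6 CPM and the 7 genes of the dissociation response to 122 to 172 CPM, the last with tumor 3 lowest. The 4 epithelial markers summed to 3972, 2587, 2488 and 2632 CPM, and the 4 club and ciliated markers to 20.5, 548, 757 and 477 CPM. None of the markers in these lists was at 0 in all tumors. The part of these cells in the spread of the members was not tested.

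Not all members followed that order. Il23a, Il22ra1, Il4i1, Il17rd, Il1rl2, Il6ra, Il17re, Il17rc, Il7 and Il3ra were lowest in tumor 3, and of the 9 members highest in tumor 2, Il17rd, Il4i1, Il20rb and Il1rap lay farthest above their own mean.

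**Figure D4:**
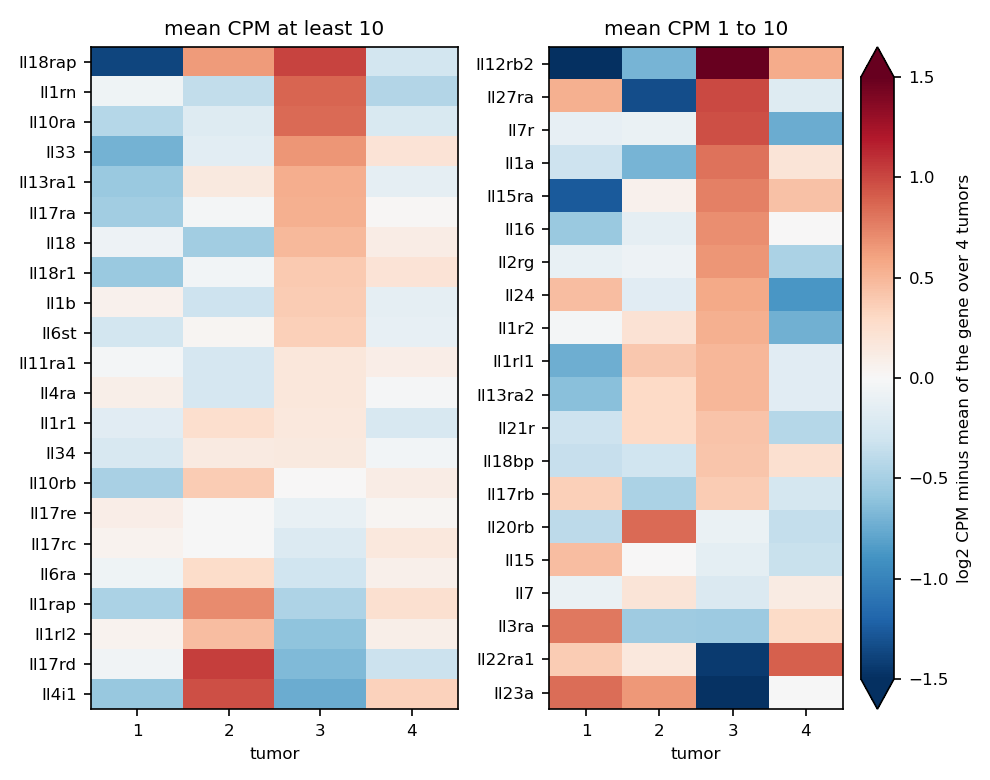
Log2 CPM of the 42 tested members in each tumor minus the mean of the gene over the 4 tumors, with the 22 members of at least 10 CPM on the left and the 20 of 1 to 10 CPM on the right, sorted by the value in tumor 3. Red is above and blue below the mean, and colors are capped at the ends of the scale. The median of the members is 0.39 in tumor 3 and -0.14 in tumor 1.

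Genes that act beside and below these receptors differed by group in their spread. From a list of 42 genes 39 were tested and 32 varied beyond counting noise, against 76.7% of all genes, with a median SD of log2 CPM of 0.28. The median SD was 0.19 for Socs and Cish, 0.23 for Jak and Stat and 0.24 for IL-1 receptor signaling genes, against 0.49 for the members. It was 0.56 for inflammasome genes and 0.69 for partner ligands and receptors. These groups were not matched for level, on which the SD depends. For all genes the median SD was 0.25 at a mean of at least 10 CPM and 0.49 at 1 to 10 CPM. Of the partner ligands and receptors without an Il symbol 9 of 9 varied, of the Jak and Stat genes 9 of 11, of Socs and Cish 5 of 7, of IL-1 receptor signaling genes 6 of 8 and of inflammasome genes 3 of 4.

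Per kb, the highest Jak or Stat gene was Stat6, the factor of IL-4 and IL-13 signaling, with 129, 159, 172 and 161 CPM. Irak1, the highest gene of its group and a kinase below the IL-1 and IL-18 receptors, had 102, 155, 150 and 128 CPM, lowest in tumor 1 like Il18r1. Socs2, the highest of the Socs genes and a feedback inhibitor of cytokine receptors, had 159, 154, 70.2 and 161 CPM, and Gsdmd, the highest inflammasome gene and the pore through which IL-1 beta and IL-18 leave cells, had 41.3, 41.7, 20.7 and 52.1 CPM. Socs2 and Gsdmd were thus lowest in tumor 3. Large SDs were those of Osm (1.28 on the log2 scale, 0.330, 0.697, 3.09 and 1.19 CPM), Stat4 (1.06) and Crlf2 (0.75), and all 3 genes were highest in tumor 3. Casp1 and Nlrp3, which activate IL-1 beta and IL-18, averaged 5.00 ± 2.15 and 2.75 ± 1.12 CPM (SD, n = 4).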

How the data were processed

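Polyadenylated RNA of 4 KP lung tumors (1 group) was sequenced from 500 ng per library. Per the labels and the methods of the study, reads were trimmed (Cutadapt), mapped to mm10 (HISAT2) and assigned to genes (featureCounts) by the authors. The deposited counts are raw. The strand setting and annotation release were not given in the sources used here. The authors also deposited log2 normalized counts (TMM and voom), used only as an alternative. All 156068 values of the single-tumor tables were equal to those of the combined table.

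CPM used TMM factors from edgeR 4.0.16 (R 4.3.3), and log2 CPM had 0.5 added to counts. Genes with a mean of at least 1 CPM (14225) were tested by chi-square against Poisson expectations proportional to effective library size (3 degrees of freedom, Benjamini-Hochberg over all of them, threshold 0.05). Dixon's limit was 0.829. The chi-square and Dixon steps were tested on simulated data. Positions, exon lengths and overlaps are those of GENCODE M21 (GRCm38), in which 82 of 82 member IDs were found. Near-identical stretches (at least 80 nt at 97% identity) were found with BLAST 2.17.0. Exons of 17 tested members overlapped another annotated gene and 15 tested members had a near-identical stretch, and not all of these are marked above. RefSeq upstream sequences were matched by symbol for 65 of 82 members. No reference table of proteins was used here.

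Every tested member is named. Those with a mean of at least 10 CPM and the 6 with the largest SD have a value for every tumor. Partner genes were named by the 4 largest SDs and the highest of each list per kb, of which 1 gene is not reported here, and Casp1 and Nlrp3 were added after their values were seen. The promoters of Il33, Il18r1 and Il18rap were chosen after their values were seen. Members, lists and pairs were chosen with earlier results of these data known. Intervals were not computed, and floors cover counting error only. Chi-square p-values measure departure from counting noise among 4 libraries, and permutation p-values concern the pair differences within tumors. Alternatives were DESeq2 1.42.0 size factors, total counts, other filters and pseudocounts, another threshold, the deposited log2 values, other gene lengths and each tumor left out.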

Additional observations from a re-analysis of the deposited data

Results flagged for a closer look

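In 10 of 128 results tested over the 4 tumors, 1 tumor lay far from the other tumors by Dixon's ratio, which chance passes in about 1 of 20. Tumor 3 was apart on the high side for Csf2rb2, a receptor chain for IL-3 in mice (21.1 CPM, a close paralog of Csf2rb, so reads may have been split between them), for the partner ligands and receptors without an Il symbol (summed 391 CPM) and for the common gamma chain and IL-13 receptors (376 CPM against 278 to 288). It was also apart on the high side for the T cell markers (23.9 CPM) and the endothelial markers (215 CPM), and for the log2 difference of Il6st minus Il6ra (4.15 against 3.25 to 3.30). Of the endothelial markers, Pecam1 (110 CPM) and Cldn5 (8.39 CPM) were highest in tumor 3. Cdh5 was highest in tumor 1 (60.2 CPM) and Kdr in tumor 2 (41.0 CPM). Tumor 3 was apart on the low side for Socs2 (70.2 CPM) and for the Socs and Cish genes together (372 CPM against 471 to 495). Tumor 1 was apart on the high side for the epithelial markers (3972 CPM) and on the low side for the club and ciliated markers (20.5 CPM). Epcam, Krt8 and Krt18 were highest in tumor 1, but Cdh1 was lowest there (842 CPM). Scgb1a1, Scgb3a2 and Foxj1 were lowest in tumor 1, but Ccdc39 was highest there (5.17 CPM). The sum of the common gamma chain and IL-13 receptors is mostly Il4ra and Il13ra1, and the sum of Socs and Cish genes contains Socs2, so these results are not independent.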

How the results depend on the processing

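Mean CPM moved by less than 1 SD for all 42 tested members under DESeq2 size factors and total counts. The same held with each tumor left out, but that outcome was fixed in advance. Apart from small changes in scaling, dropping 1 of 4 values cannot move their mean by 1 SD. The 12 pair differences kept their direction except without length correction, where Il1rn minus Il1b turned to 0.27 and Il17rc minus Il17ra to -0.13, and where 8 of 12 pairs had 1 direction in all tumors. Leaving out 1 tumor left 40 to 43 tested members. Of these, 19 (without tumor 3) to 32 were beyond counting noise, as were 22 to 32 pathway genes, against 62.3% to 71.9% of all genes. A range over 2-fold was seen in 9 (without tumor 3) to 23 members, against 16.5% to 25.1% of all genes. Tumor 3 was highest in 27 to 28 members, against 36.0% to 37.1% of all genes. The median SD was 0.37 to 0.54, against 0.24 to 0.31 for all genes. Leaving out 1 tumor also gave summed CPM of 1654 to 1956 for all members, 466 to 611 for ligands and 1106 to 1258 for receptors. It gave 49 to 51 members above the floor, 43 to 44 above it in every tumor and 11 to 12 pairs of 1 direction. With no filter on low counts 43 of 61 members ranged over 2-fold (50.4% of all genes) and 6 had 1 tumor apart (16.3% of all genes), where 61 members replace 42. At a mean of at least 5 CPM, with 28 members left, 14 ranged over 2-fold (20.2% of all genes) and 16 were highest in tumor 3 (28.8%). With total counts 1 member had 1 tumor apart, against 0 of 42 with TMM, and the cause was not tested. The counts of members over 2-fold and highest in tumor 3 were chosen after the data were examined. No paired analysis was possible because the 4 tumors form 1 group. Members under 10 counts are limited by depth, and 31 of 82 stayed at or under 3 counts in every tumor.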
